A study of Mus musculus with 6 samples.

Results

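Long noncoding genes that carry small nucleolar RNAs (snoRNAs) in their introns were examined, with reads counted per gene, which does not separate spliced from unspliced RNA. In Y641-F cells 8 of the 10 exceeded their Control level and none was lower, by edgeR's quasi-likelihood test at an adjusted p under 0.05. None was lower at an unadjusted p under 0.05, or by DESeq2 or limma. Of all genes tested, edgeR called 15.6% higher and 16% lower, and of those averaging 300 counts or more 25.9% and 21.4%. The host genes were *Gas5*, *Snhg1*, *Snhg3*, *Snhg4*, *Snhg5*, *Snhg6*, *Snhg8*, *Snhg12*, *Snhg15* and *Snhg17*, taken by name from the 40205 rows of the count table. They were chosen with earlier results of these data known. The changes called ran from 1.69-fold for *Snhg12* to 2.87-fold for *Snhg15*, while *Snhg8* and *Snhg17* did not pass the test. In 9 of the 10 genes, 1 library, Y641-F replicate 2, stood at least 1.5 times above the mean of the other Y641-F libraries, so each change is given with and without that library. It was singled out by its values in these genes, and leaving it out narrows the spread of the Y641-F group. Adjusted p-values without it, from Y641-F replicates 1 and 3 only, are therefore descriptive and do not strengthen the results.

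Both groups were 4T-1 cells, an established line of mouse mammary tumour cells used as a model of basal-like triple-negative breast cancer. Control cells (genotype label WT) carried the empty retroviral vector MSCV, and Y641-F cells (label Y641 mutated) carried a retroviral EZH2 construct with a changed residue in its catalytic domain, which makes the enzyme a hyperactive H3K27 methyltransferase. The native *Ezh2* gene was kept in both. Each group had 3 libraries, described as separate batches of stable cells, and no source used here says whether a batch was a separate transduction, so p-values measure the spread between these batches. The methods name puromycin for MSCV cells and hygromycin for Y641-F cells, but in another sentence puromycin for both lines. If the drugs differed, construct and selection drug cannot be told apart.

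Each library held 32509268 to 36429035 reads counted on genes. Libraries of a group differed by more than sampling noise (chi-square per degree of freedom 10.9 to 29.7), and each was counted as 1 replicate. *Ezh2* had 3354 to 4350 counts and a log2 fold change of 0.06 (edgeR adjusted p = 0.730), and whether reads of the construct are counted under this gene is not given in the sources used here. The epithelial markers *Epcam*, *Cdh1*, *Krt8* and *Krt18* had at least 9058 counts in every library. The other epithelial markers listed, *Krt14* and *Cldn7*, had at least 3733 and 1034 counts and rose by 1.59 and 1.14 on the log2 scale (edgeR adjusted p = 5.62e-07 and 4.62e-06). Summed levels of 6 haematopoietic markers were 6.85 to 12.9 CPM in Control and 8.21 to 9.48 CPM in Y641-F libraries, and those of 7 endothelial and fibroblast markers 34.9 to 47.1 CPM and 22.1 to 37.6 CPM, mostly *Pdgfra*, with *Lum* at 0 counts throughout. CPM is a library's reads on a gene per 1000000 reads, scaled with TMM factors (a trimmed mean of log ratios between libraries).

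A snoRNA host gene is transcribed by RNA polymerase II, its exons are spliced together and exported, and its introns are debranched and trimmed until only the snoRNA, protected by its proteins, is left. Box C/D snoRNAs guide ribose methylation and box H/ACA snoRNAs guide pseudouridylation of ribosomal RNA, and a few act in its cleavage. Many of the spliced host RNAs begin with a terminal oligopyrimidine (TOP) tract like that of ribosomal protein mRNAs, hold only short reading frames, and are degraded by nonsense-mediated decay when they are translated. *Gas5*, growth arrest-specific transcript, was named for its accumulation in cells that stop growing.

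The snoRNAs are what sets these genes apart from other long noncoding RNAs, so examples of both classes are shown. GENCODE vM39 places 33 snoRNA loci inside the 10 genes on GRCm39, from 9 in *Gas5* and 8 in *Snhg1* to 1 each in *Snhg6*, *Snhg8* and *Snhg15*. The box C/D examples are Snord47 (chr1:160865652-160865728, plus strand, in *Gas5*), Snord50a (chr9:88403582-88403653, minus strand, in *Snhg5*), Snord87 (chr1:10012688-10012774, minus strand, in *Snhg6*) and Snord99 (chr4:132038002-132038075, plus strand, in *Snhg12*), with the matches to TGATGA and CTGA, which correspond to box C and box D, in capitals:
Snord47: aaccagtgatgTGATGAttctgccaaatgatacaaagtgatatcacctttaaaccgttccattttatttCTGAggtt
Snord50a: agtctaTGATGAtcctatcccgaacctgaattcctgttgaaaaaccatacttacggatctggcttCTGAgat
Snord87: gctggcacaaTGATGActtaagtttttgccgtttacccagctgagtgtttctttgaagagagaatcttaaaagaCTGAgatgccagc
Snord99: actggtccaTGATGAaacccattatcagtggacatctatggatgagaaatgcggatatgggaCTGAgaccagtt

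The box H/ACA examples are Snora73a (chr4:132080086-132080290, minus strand, in *Snhg3*), the U17 snoRNA that acts in cleavage of the precursor of ribosomal RNA, and Snora24 (chr3:123301586-123301715, minus strand, in *Snhg8*), with the ACA near the end in capitals:
Snora73a: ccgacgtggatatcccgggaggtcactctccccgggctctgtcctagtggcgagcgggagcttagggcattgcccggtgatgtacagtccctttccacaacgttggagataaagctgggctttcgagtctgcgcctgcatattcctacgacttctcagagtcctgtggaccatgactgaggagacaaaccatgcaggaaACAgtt
Snora24: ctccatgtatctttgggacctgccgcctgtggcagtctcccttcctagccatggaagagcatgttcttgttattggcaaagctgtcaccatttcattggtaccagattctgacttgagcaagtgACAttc

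A further example, Snord22 (chr19:8703230-8703355, plus strand, in *Snhg1*), the U22 snoRNA after which *Snhg1* was first named, is longer and holds neither TGATGA nor ACA in the windows searched:
Snord22: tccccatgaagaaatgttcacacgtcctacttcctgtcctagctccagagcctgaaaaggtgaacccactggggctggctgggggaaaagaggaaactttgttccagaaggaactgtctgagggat
Of the 33 loci, 17 held TGATGA in the first 25 bases and CTGA in the last 25, as did 20.7% of all 1507 annotated mouse snoRNA models, and a further 10 held ACA in the last 8 bases without the first match, as did 45.9% of all models. Only the strand of the snoRNA was searched, and a match is a description of these letters. *Gas5*, *Snhg1*, *Snhg5* and *Snhg6* held matches of the first kind only, and *Snhg3*, *Snhg4*, *Snhg8*, *Snhg15* and *Snhg17* of the second kind only, while *Gas5*, *Snhg1*, *Snhg4* and *Snhg12* also held loci with neither.

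The start regions bear on the TOP class of these genes. They are shown from 20 bases before to 30 bases from the annotated start (RefSeq, GRCm38.p6), with a run of C and T that opens with C in capitals:
Gas5: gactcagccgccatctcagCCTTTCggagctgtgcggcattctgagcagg
Snhg8: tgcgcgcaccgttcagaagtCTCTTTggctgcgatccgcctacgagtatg
Snhg12: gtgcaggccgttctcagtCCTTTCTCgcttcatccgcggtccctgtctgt
Of the 8 host genes with a start region in the table, 5 (*Gas5*, *Snhg3*, *Snhg5*, *Snhg8* and *Snhg12*) had a C followed by at least 4 C or T within 10 bases of an annotated start, against 34.4% of 27025 genes. In *Snhg3* and *Snhg5*, not shown, the run opened only at base 3 and base 10 from the start, so the match does not place a tract at the start itself. The sequence CACGTG, searched on both strands since it reads the same on each, occurred in the region of 300 bases at the start of 1 of the 8, *Snhg15*, and in 8.09% of all genes. *Gas5* has more than 1 annotated start, and the run is at the one shown. *Snhg8*, which has the run of pyrimidines exactly at its start, was among the genes that did not pass the test.

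Over all 21043 genes tested with edgeR's quasi-likelihood test, 31.6% were called at a Benjamini-Hochberg adjusted p under 0.05, with 15.6% higher in Y641-F cells and 16% lower, against 8 and 0 of the 10 host genes. Of the 10435 genes whose counts averaged 300 or more, as those of all host genes did, 25.9% were higher and 21.4% lower. Since the host genes were chosen with earlier results of these data known, these shares are given for description and do not test the list. Without Y641-F replicate 2, 8 of the host genes were higher and none was lower by edgeR, against 18.1% of 20393 genes higher. Of the 10435 genes averaging 300 counts or more, 3215 were then higher. The median log2 fold change of the host genes was 0.50 without that library. With all libraries the median was 0.91 over the host genes and -0.01 over all genes tested. The groups did not overlap, with Y641-F higher, for 8 host genes and for 21.2% of all genes. The same held for 3303 of the 10435 genes averaging 300 counts or more. In bulk RNA such as this, a change in the RNA of each cell and a change in how many cells carry it cannot be told apart.

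*Gas5* (chr1:160861793-160866118 on the plus strand, GRCm39), host of box C/D snoRNAs, had 169.8, 155 and 176 CPM in the Control libraries and 222, 477 and 239.9 CPM in the Y641-F libraries. All Y641-F libraries were above all Control libraries, and replicate 2 was far above the others. On the log2 scale it changed by 0.91 (SE 0.230, edgeR adjusted p = 0.01), where SE is the standard error of the fitted change, and 0.47 without Y641-F replicate 2 (edgeR adjusted p = 8.71e-04). *Snhg1* (chr19:8700319-8703812 on the plus strand), host of *Snord22* and further box C/D snoRNAs, had 85.5, 88.2 and 115 CPM in Control and 140.4, 280.3 and 157 CPM in Y641-F libraries. The groups were separate here too, with Control replicate 3 the nearest to the Y641-F range. The difference was 1.004 (SE 0.217, edgeR adjusted p = 0.00391) on the log2 scale, and 0.63 (edgeR adjusted p = 9.36e-04) without Y641-F replicate 2.

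*Snhg3* (chr4:132075325-132080997 on the minus strand), which carries both U17 snoRNAs, had 30, 28.4 and 33.0 CPM in Control and 52.6, 84.1 and 58.8 CPM in Y641-F libraries. Its Control values lay close together, and even the lowest Y641-F library was well above them. The log2 fold change of 1.10 (SE 0.151, edgeR adjusted p = 1.87e-04) became 0.87 (edgeR adjusted p = 1.33e-05) without Y641-F replicate 2. *Snhg5* (chr9:88377321-88405615 on the minus strand), host of the paired snoRNAs *Snord50a* and *Snord50b*, had 50.1, 49.99 and 54.1 CPM against 86.0, 143 and 84.0 CPM. Replicates 1 and 3 of Y641-F were nearly equal, and replicate 2 was higher. *Snhg5* changed by 1.02 (SE 0.172, edgeR adjusted p = 7.57e-04) on the log2 scale, or by 0.73 (edgeR adjusted p = 1.43e-05) without replicate 2.

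The largest change of the 10 was that of *Snhg15* (chr11:6473829-6478870 on the minus strand), a short-lived RNA that hosts *Snora9*, with 8.91, 8.16 and 9.81 CPM in Control and 19.7, 35.4 and 22.0 CPM in Y641-F libraries. Even the lowest Y641-F library was far above the highest Control library. The fold was 2.87 (95% interval 2.14 to 3.85), a log2 fold change of 1.52 (SE 0.193, edgeR adjusted p = 1.08e-04). Without Y641-F replicate 2 it was 1.22 on the log2 scale (edgeR adjusted p = 7.23e-06), again the largest of the 10.

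*Snhg4* (chr18:35686424-35691369 on the plus strand), host of *Snora74a* (U19), had 23.6, 19.4 and 22.4 CPM in Control and 29.4, 60.2 and 32.9 CPM in Y641-F libraries. *Snhg6* (chr1:9926809-10014504 on the minus strand), host of *Snord87*, had 43.2, 39.5 and 50.6 CPM against 60.8, 114 and 63.1 CPM. In each the groups were separate, and Y641-F replicate 2 was well above the other Y641-F libraries. The log2 fold changes were 0.90 (SE 0.217, edgeR adjusted p = 0.00729) for *Snhg4* and 0.84 (SE 0.202, edgeR adjusted p = 0.00776) for *Snhg6*. Without Y641-F replicate 2 they were 0.51 and 0.48 (edgeR adjusted p = 0.00190 and 0.00221).

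*Snhg12* (chr4:132035905-132038762 on the plus strand), which hosts *Snora16a*, *Snora44*, *Snora61* and *Snord99*, had 16.3, 17.0 and 21.6 CPM in Control and 22.0, 43.7 and 27.1 CPM in Y641-F libraries. Control replicate 3 and Y641-F replicate 1 were almost equal, so the groups only just failed to overlap. Its change was 0.76 (SE 0.210, edgeR adjusted p = 0.0159) on the log2 scale and 0.42 (edgeR adjusted p = 0.0250) without Y641-F replicate 2. It no longer passed when Control replicate 1 was left out (adjusted p = 0.0699) or Control replicate 2 was (adjusted p = 0.0573), both from edgeR.

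The genes that did not pass were *Snhg17* (chr2:158195620-158204194 on the minus strand), a host of box H/ACA snoRNAs, and *Snhg8* (chr3:123301192-123302578 on the minus strand), the host of *Snora24*. *Snhg17* had 26.5, 17.1 and 18.1 CPM in Control and 24.1, 57.9 and 23.9 CPM in Y641-F libraries. Y641-F replicates 1 and 3 lay within the Control range, and replicate 2 was above every other library. Its log2 fold change of 0.78 (SE 0.296, edgeR adjusted p = 0.0641) fell to 0.22 (edgeR adjusted p = 0.302) without Y641-F replicate 2, and with that library in place it passed the test when the first Control library was left out, or replicate 1 or 3 of Y641-F (edgeR adjusted p = 0.0479, 0.0431 and 0.0357). *Snhg8* had 50.3, 55.9 and 73.4 CPM in Control and 66.7, 81.9 and 61.4 CPM in Y641-F libraries. Here the groups overlapped, with Control replicate 3 above Y641-F replicates 1 and 3. The change was 0.23 (SE 0.142, edgeR adjusted p = 0.263) on the log2 scale, with a 95% interval of the fold from 0.943 to 1.45, which lies below the interval of *Snhg15* and of *Snhg3* (1.704 to 2.69).

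**Figure D1:**
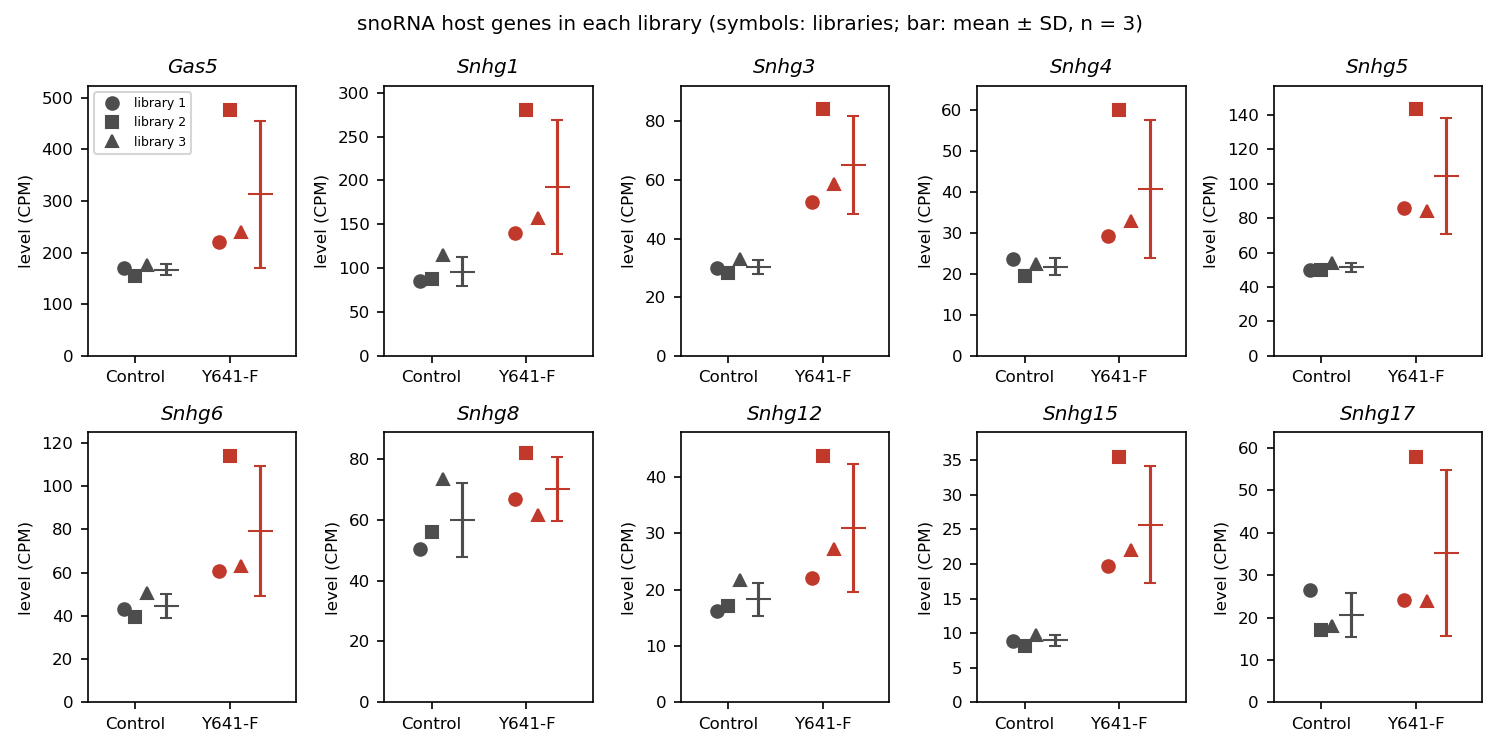
Level of each of the 10 snoRNA host genes in CPM (vertical axis, from 0) in the 3 Control and 3 Y641-F libraries, with a symbol for each library number and bars for the mean ± SD. Y641-F replicate 2 is the highest library in all 10 panels, and the remaining Y641-F libraries are above every Control library in 8 of them.

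**Figure D2:**
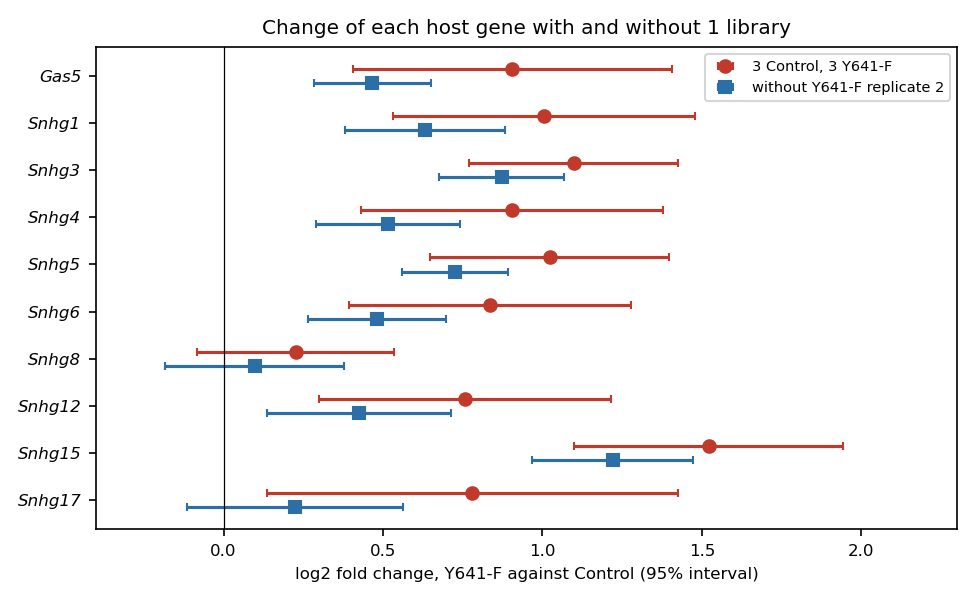
Log2 fold change of each host gene with its 95% interval from edgeR, with all 6 libraries (circles) and without Y641-F replicate 2 (squares). *Snhg15* has the largest change in both fits, the intervals of *Snhg8* include 0 in both, and those of *Snhg17* include 0 only without that library.

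Levels of the genes were compared with each other only per kilobase of annotated exon. In Control libraries *Snhg8* was highest (43.2 ± 8.69 CPM per kilobase, SD, n = 3), followed by *Gas5* (39.5 ± 2.60), *Snhg3* (30.9 ± 2.39) and *Snhg1* (27.5 ± 4.60). The ranges of *Snhg8* and *Gas5* overlapped, as did those of *Snhg3* and *Snhg1* and, further down, those of *Snhg6* and *Snhg12*, so the order within these pairs is not beyond the spread of the libraries. *Snhg5*, *Snhg6*, *Snhg12*, *Snhg4* and *Snhg17* followed, between 11.6 and 2.43 CPM per kilobase, and *Snhg15* was lowest at 1.78 ± 0.164. In Y641-F libraries *Snhg8* was next below *Gas5*, *Snhg3* and *Snhg1*, at 50.5 ± 7.66 CPM per kilobase, but this order rests on replicate 2. In Y641-F replicate 1 *Snhg8* was above *Snhg1* (48.1 and 40.2 CPM per kilobase), and in replicate 3 they were close (44.3 and 45.1). GENCODE models of these genes hold many transcripts that keep introns, so exon lengths (986 bases for *Snhg3* to 8450 for *Snhg17*) exceed the spliced lengths. With the longest transcript as the length only 3 of the 10 genes kept their rank, and *Snhg3* came first.

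Summed over the 10 genes, the level was 504, 479 and 574 CPM in Control libraries and 723, 1378 and 771 CPM in Y641-F libraries. Y641-F replicate 2 thus held nearly the sum of the other Y641-F libraries. Relative to the mean of Y641-F replicates 1 and 3, that library was 1.28 times as high for *Snhg8* and between 1.51 (*Snhg3*) and 2.41 (*Snhg17*) times as high for the rest. A ratio of at least 1.5 was met by 9 of the 10 host genes, by 17.3% of all genes and by 2.21% of the genes whose counts averaged 300 or more. In no Control library did more than 1 host gene stand 1.5 times above the mean of the remaining libraries of its group. For Y641-F replicates 1 and 3 that mean includes replicate 2, so such a ratio could hardly be met there. Mitochondrially encoded mRNAs took 3.52% of the counts of Y641-F replicate 2, against 1.42% to 2.92% in the other libraries, ribosomal protein genes 7.83% against 6.33% to 8.06%, and the part of these in the host gene levels was not tested.

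Rows of snoRNAs that lie inside the host genes were mostly higher as well. In the RefSeq gene order (GRCm38.p6), 30 snoRNA rows of the count table lie inside the 10 genes, and all 30 passed the filter on low counts. In Y641-F cells 25 were higher and none was lower by edgeR (28 and 0 at an unadjusted p under 0.05), with a median log2 fold change of 1.52, and without Y641-F replicate 2 the numbers were 17 and 0 with a median of 0.92. Without Control replicate 2 or Control replicate 3, 16 and 15 were higher, and limma-voom called 19 higher and none lower. Of all 198 snoRNA rows tested 36.9% were higher, and of the 168 outside the 10 genes 48 were higher and none lower by edgeR (1 lower at an unadjusted p under 0.05, none by DESeq2), with a median of 1.063. Without Y641-F replicate 2, 22 of the 158 rows tested outside the 10 genes were higher and none lower by edgeR, with a median of 0.56. Reads on snoRNA rows are few, at 0.0169% to 0.0710% of the counts of a library. Mature snoRNAs are shorter than the fragments that standard RNA-seq libraries favour, and whether these reads come from mature snoRNAs, from introns or from unspliced host RNA cannot be told apart here.

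*Snord47* of *Gas5* had 69, 46 and 34 counts in Control and 95, 371 and 81 counts in Y641-F libraries. *Snord22* of *Snhg1* had 234, 208 and 180 against 386, 1073 and 410 counts. Both were highest in Y641-F replicate 2 and lowest in Control libraries, with log2 fold changes of 1.98 (SE 0.511, edgeR adjusted p = 0.0110) and 1.69 (SE 0.325, edgeR adjusted p = 0.00187). Among the 8 rows inside *Gas5*, LOC115487638 had the most reads, with 319, 216 and 183 counts against 393, 1393 and 541 counts, a log2 fold change of 1.80 (SE 0.377, edgeR adjusted p = 0.00324). Without Y641-F replicate 2 the changes were 0.94, 1.04 and 1.062 (edgeR adjusted p = 0.0252, 5.88e-05 and 6.56e-04). All 8 rows of *Gas5* and all 8 of *Snhg1* passed the test with all libraries, with changes from 1.25 to 2.03. Without Y641-F replicate 2 their changes were 0.42 to 1.38, and LOC115487643 of *Gas5* and LOC115489078 and LOC115489081 of *Snhg1* no longer passed (edgeR adjusted p = 0.0715, 0.229 and 0.0511).

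The U17 snoRNAs of *Snhg3* had changes close to that of their host. *Snora73b* had 182, 130 and 150 counts in Control and 240, 435 and 301 counts in Y641-F libraries, and *Snora73a* 80, 101 and 55 against 134, 261 and 131 counts. Both separated the groups, with log2 fold changes of 1.17 (SE 0.211, edgeR adjusted p = 0.00118) and 1.26 (SE 0.291, edgeR adjusted p = 0.00575), where *Snhg3* had 1.10. The pair are closely related copies, so reads may be divided between them. *Snora24* of *Snhg8*, in contrast, rose while its host did not pass the test. It had 31, 37 and 42 counts in Control and 62, 173 and 64 counts in Y641-F libraries, which is a log2 change of 1.53 (SE 0.394, edgeR adjusted p = 0.0109), and 0.87 without Y641-F replicate 2 (edgeR adjusted p = 0.0356). The difference between the changes of *Snora24* and *Snhg8* was not tested.

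*Snord87* of *Snhg6* had 19, 25 and 13 counts in Control and 43, 97 and 38 counts in Y641-F libraries, which is a log2 change of 1.74 (SE 0.423, edgeR adjusted p = 0.00783). In *Snhg12*, *Snora44*, *Snora61* and *Snord99* passed (log2 fold changes 1.80, 1.20 and 1.40) and *Snora16a* did not, at 1.68 (SE 0.619, edgeR adjusted p = 0.0576). By edgeR none of the 4 passed without Y641-F replicate 2. *Snora74a* of *Snhg4* had 12, 0 and 4 counts against 11, 24 and 18 counts (edgeR adjusted p = 0.111). The pair of rows inside *Snhg17* had log2 fold changes of 0.96 and 0.50, and 0.05 and -0.16 without Y641-F replicate 2, the second the only negative value of the 30. Of the pair inside *Snhg5*, 1 row passed (log2 fold change 1.39, adjusted p = 0.0307 from edgeR), and the single row inside *Snhg15* had 1.19 (SE 0.352, edgeR adjusted p = 0.0224). Neither passed without Y641-F replicate 2, at 0.80 and 1.04 (edgeR adjusted p = 0.140 and 0.0528).

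Set against the reads of their hosts, the snoRNA rows summed over the 10 genes took a larger share in Y641-F replicate 2, which did not hold for every host. Over the 10 genes there were 13.4, 10.3 and 9.07 snoRNA reads per 100 host reads in Control libraries and 14.6, 21.2 and 14.2 in Y641-F libraries. For *Gas5* the values were 18.6, 13.1 and 10.7 against 20.1, 29.7 and 20.7. *Snhg3* showed little of this, with 24.3, 22.6 and 18.8 per 100 in Control and 22.9, 25.3 and 21.5 in Y641-F libraries. *Snhg15* went the other way, with 7.19, 6.12 and 6.17 per 100 in Control and 4.73, 4.48 and 6.64 in Y641-F libraries, so that replicate 2 was the lowest of all. *Snhg4* and *Snhg17* were not highest in that library either. For *Snhg8* the ratio was 1.72, 1.84 and 1.73 against 2.99, 6.45 and 3.04, with no overlap between the groups. All 30 snoRNA rows were highest in Y641-F replicate 2, and their ratio to the mean of Y641-F replicates 1 and 3 had a median of 2.74, against 1.81 for the host genes. The high level in that library was not particular to them. Over the 168 snoRNA rows outside the 10 genes the median ratio was 2.19. For 127 of these the ratio was at least 1.5 and that library was the highest. How reads that touch both a host exon and a snoRNA were counted is not given in the sources used here.

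**Figure D3:**
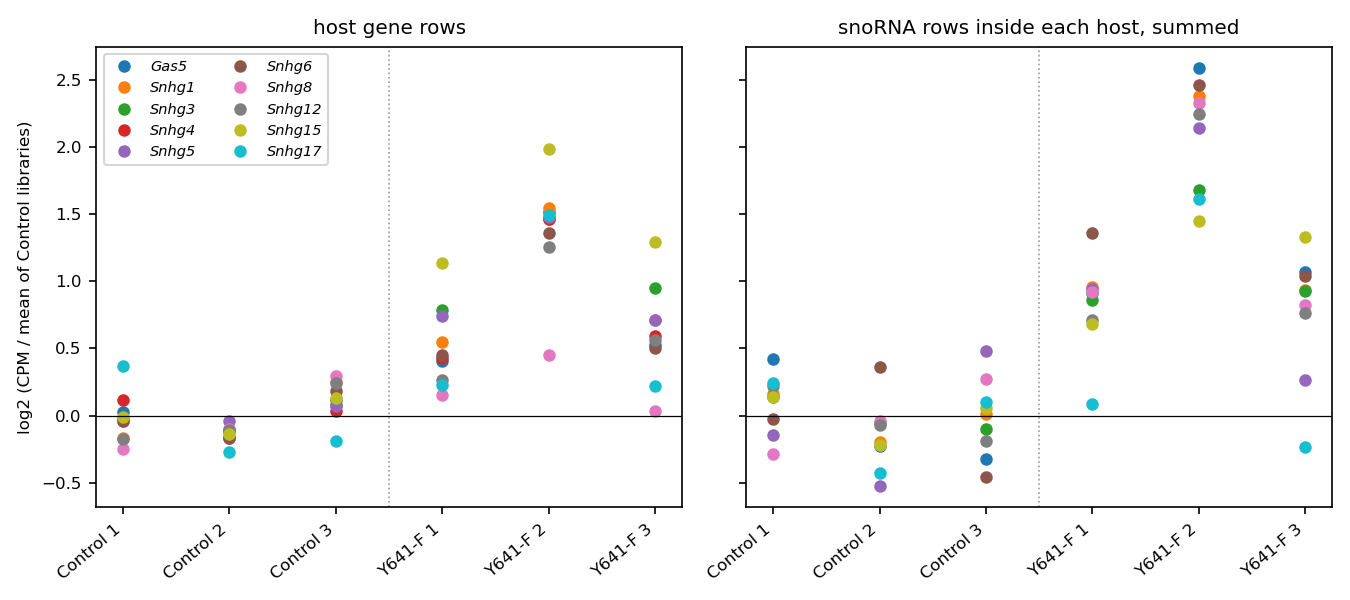
Log2 of CPM over the mean of the Control libraries (vertical axis) in each of the 6 libraries, for the host gene rows (left) and for the snoRNA rows inside each host, summed (right). The single snoRNA row of *Snhg4*, which has 0 counts in a Control library, is left out on the right, and Y641-F replicate 2 is highest for hosts and snoRNAs, and *Snhg8* is the lowest host there while its snoRNA is among the higher ones.

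Protein-coding genes that start within 1000 bases of a host gene were read beside it. *Rcc1*, the nucleotide exchange factor of the GTPase Ran, starts 46 bases from *Snhg3* on the same strand and shares 64.2% of the exon bases of *Snhg3* in GENCODE, so reads can be shared between them. *Rcc1* had 2611, 2640 and 2371 counts in Control and 4087, 4364 and 4819 counts in Y641-F libraries, which is a log2 change of 0.90 (SE 0.0804, edgeR adjusted p = 8.93e-06), close to that of *Snhg3*. Y641-F replicate 2 did not stand apart for *Rcc1*, at 0.979 times the mean of the other Y641-F libraries, where it was 1.51 times for *Snhg3*. The reads of *Snhg3* per 100 reads of *Rcc1* were accordingly 41.3, 38.7 and 46.0 in Control and 40, 63.1 and 41.8 in Y641-F libraries.

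*Slc3a2*, the heavy chain of an amino acid transporter, starts 789 bases from *Snhg1* on the other strand. It had 7404, 7459 and 6473 counts in Control and 7798, 8520 and 7275 counts in Y641-F libraries, which is a log2 change of 0.25 (SE 0.0977, edgeR adjusted p = 0.0743). *Zbtb37*, a zinc finger gene, starts 626 bases from *Gas5* on the other strand and had 415, 280 and 336 against 323, 435 and 415 counts, with 0.28 (SE 0.158, edgeR adjusted p = 0.211) on the log2 scale. The reads of *Snhg1* per 100 reads of *Slc3a2* were 41.5, 42.6 and 58.5 in Control and 56.0, 107.8 and 74.1 in Y641-F libraries, where Control replicate 3 was above Y641-F replicate 1. Neither neighbour passed the test, and in Y641-F replicate 2 they stood at 1.12 and 1.18 times the mean of the other Y641-F libraries. Exons of *Gas5*, *Snhg1*, *Snhg3*, *Snhg5*, *Snhg6*, *Snhg15* and *Snhg17* lie partly over antisense exons in GENCODE, and since the strand setting of the counting is not given in the sources used here, such reads are not separated with certainty. The overlap covers 71.5% of the exon bases of *Snhg3* (with *Gm17300*) and 21.3% of those of *Snhg1* (with *Slc3a2*).

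Other long noncoding snoRNA hosts were read from a list of 10, of which 8 were tested. *Snhg9* and *Snhg16* rose, none fell by edgeR (none at an unadjusted p under 0.05, none by DESeq2 or limma), and 6 did not pass. *Snhg16* had 18.4, 13.9 and 15.9 CPM in Control and 28.2, 45.3 and 24.1 CPM in Y641-F libraries, without overlap, and a log2 fold change of 1.02 (SE 0.199, edgeR adjusted p = 0.00208). *Snhg9*, at 8 to 19 counts in Control and 39 to 83 counts in Y641-F libraries, had 2.16 (SE 0.404, edgeR adjusted p = 0.00154). *Zfas1*, another TOP RNA that hosts box C/D snoRNAs and was named after its values were seen, did not pass, with 92.8, 101 and 145 CPM in Control and 82.3, 151 and 87.7 CPM in Y641-F libraries. Its log2 fold change was -0.08 (edgeR adjusted p = 0.822), and -0.41 without Y641-F replicate 2 (edgeR adjusted p = 0.0493), a fall. In 6 of the 8 genes Y641-F replicate 2 was at least 1.5 times the mean of the other Y641-F libraries and above every other library. Among all 4714 long noncoding rows tested, 6.92% were higher. Of the 8 hosts 25% were higher, near the 25.9% of genes averaging 300 counts or more. All of the 8 but *Snhg9* and *Snhg10* reached that average.

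Genes of the core proteins that bind snoRNAs were higher for 7 of 8, against 25.9% of genes averaging 300 counts or more. For box C/D particles, the scaffold gene *Nop56* went from 239 ± 6.19 CPM to 561 ± 9.94 CPM (SD, n = 3), with a change of 1.23 (SE 0.0883, edgeR adjusted p = 1.83e-06) on the log2 scale, and its partner *Nop58* and the kink-turn binding *Snu13* rose by 1.19 and 0.93. The methyltransferase *Fbl* (fibrillarin) had 0.25 (SE 0.117, edgeR adjusted p = 0.127), and passed without Y641-F replicate 2, at 0.35 (edgeR adjusted p = 0.0130). All 4 core proteins of box H/ACA particles rose. The pseudouridine synthase *Dkc1* (dyskerin) went from 95.7 ± 6.76 CPM to 215 ± 19.6 CPM (SD, n = 3), or by 1.17 (SE 0.0989, edgeR adjusted p = 5.94e-06) on the log2 scale, and *Nhp2*, *Nop10* and *Gar1* had 1.29, 0.63 and 0.66. Y641-F replicate 2 did not stand apart for any of the 8, at 0.799 to 1.03 times the mean of the other Y641-F libraries, all below the lowest ratio of the host genes.

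Of 10 factors that assemble snoRNA particles, 8 rose, none fell by edgeR and 2 did not pass, with a median log2 fold change of 0.54. At an unadjusted p under 0.05, 1 was lower, and by DESeq2 none was. Without Y641-F replicate 2, edgeR called 8 higher and 1 lower. *Znhit6*, a zinc finger assembly factor of box C/D particles, changed by 1.08 (SE 0.0920, edgeR adjusted p = 6.29e-06) on the log2 scale, *Nolc1*, the nucleolar phosphoprotein that escorts snoRNA particles, by 1.08, and *Znhit3* by 1.002. Of 6 factors of intron debranching and snoRNA trimming, 3 rose, 1 fell and 2 did not pass. Among genes averaging 300 counts or more the shares were 25.9% higher and 21.4% lower. *Dbr1*, the lariat debranching enzyme, rose by 0.57 (SE 0.0912, edgeR adjusted p = 5.51e-04), *Exosc10*, the nuclear exosome nuclease, by 0.29 and *Tent4b*, a poly(A) polymerase, by 0.29, while *Parn*, a deadenylase that trims the ends of box H/ACA snoRNAs, had -0.41 (SE 0.113, edgeR adjusted p = 0.0162).

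Genes of nonsense-mediated decay, the pathway that degrades many spliced host RNAs, were set beside genes averaging 300 counts or more (25.9% higher, 21.4% lower). Of 10 listed, 2 rose, none fell by edgeR and 8 did not pass, with a median log2 fold change of 0.13. At an unadjusted p under 0.05, 4 were higher and 1 was lower, and DESeq2 called 3 higher and none lower. *Smg5* rose by 0.58 (SE 0.0877, edgeR adjusted p = 3.69e-04) and *Smg8* by 0.38 on the log2 scale. *Smg1*, the kinase that phosphorylates UPF1, was named after its values were seen. It had 92.7, 78.4 and 95.5 CPM in Control and 90.6, 48.9 and 94.5 CPM in Y641-F libraries. Y641-F replicate 2, the library with the highest host RNAs, was thus the lowest for *Smg1*, at 0.529 times the mean of the other Y641-F libraries. A ratio that low or lower was seen in 0.326% of the genes whose counts averaged 300 or more. Since *Smg1* was chosen with its values known, that share does not measure how unusual it is. *Upf2* stood at 0.718 times, and the median ratio over the decay genes listed was 1.03. The part of *Smg1* in the host gene levels was not tested.

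Of 7 regulators of TOP mRNA translation, 3 rose (42.9%), 1 fell (14.3%) and 3 did not pass, with a median log2 fold change of 0.10. Of genes averaging 300 counts or more, 25.9% rose and 21.4% fell. *Mlst8*, a subunit of mTOR complexes, rose by 0.62 (SE 0.118, edgeR adjusted p = 0.00177) and *Larp1*, which binds TOP mRNAs, by 0.30 on the log2 scale, while *Mtor* itself had -0.34 (SE 0.0933, edgeR adjusted p = 0.0163). 

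Protein-coding genes that hold an annotated snoRNA on their own strand gave a further comparison. Of 31 ribosomal protein genes among them, none rose and none fell by edgeR, with a median log2 fold change of 0.16. At an unadjusted p under 0.05, 5 of the 31 were higher and none lower, and at the adjusted threshold DESeq2 called 5 higher and limma-voom 1. Of 208 other protein-coding hosts tested, 62 rose and 28 fell (29.8% and 13.5%, against 15.6% and 16% of all genes). Over genes averaging 300 counts or more the shares were 25.9% and 21.4%. The median of these hosts was 0.12. Among those averaging 100 counts or more, the largest rises were those of *2410002F23Rik* (1.38), *Qtrt2* (1.37), *Tex14* (1.24), *Gnl3* (1.23) and *Nop56* (1.23), and the largest falls those of *Maged2* (-1.01), *Akap7* (-0.87), *Mfsd13a* (-0.77), *Map2* (-0.73) and *Sash1* (-0.70). *Tex14* was not called without Y641-F replicate 2 (edgeR adjusted p = 0.113). In Y641-F replicate 2 the median ratio to the other Y641-F libraries was 0.9745 over the ribosomal protein genes and 0.924 over the other protein-coding hosts, against 1.81 over the 10 host genes.

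**Figure D4:**
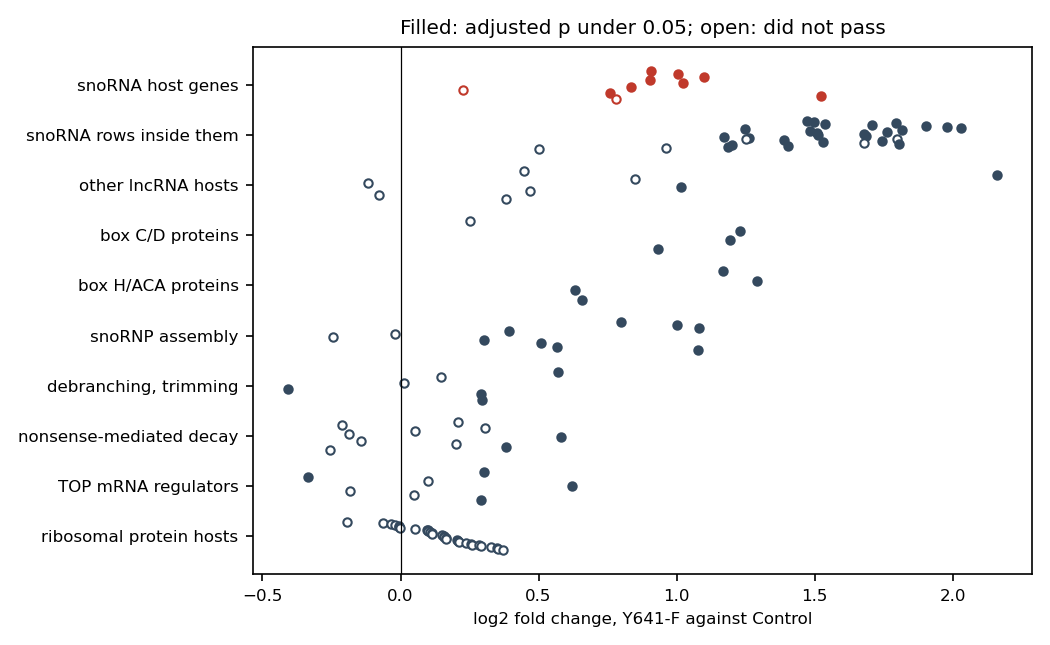
Log2 fold change of Y641-F against Control (horizontal axis) for the genes of each list (rows), filled where the adjusted p from edgeR was under 0.05. The host genes, the snoRNA rows inside them and the snoRNA-binding proteins lie mostly above 0.5, and ribosomal protein genes that hold snoRNAs lie around 0.16.

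**Figure D5:**
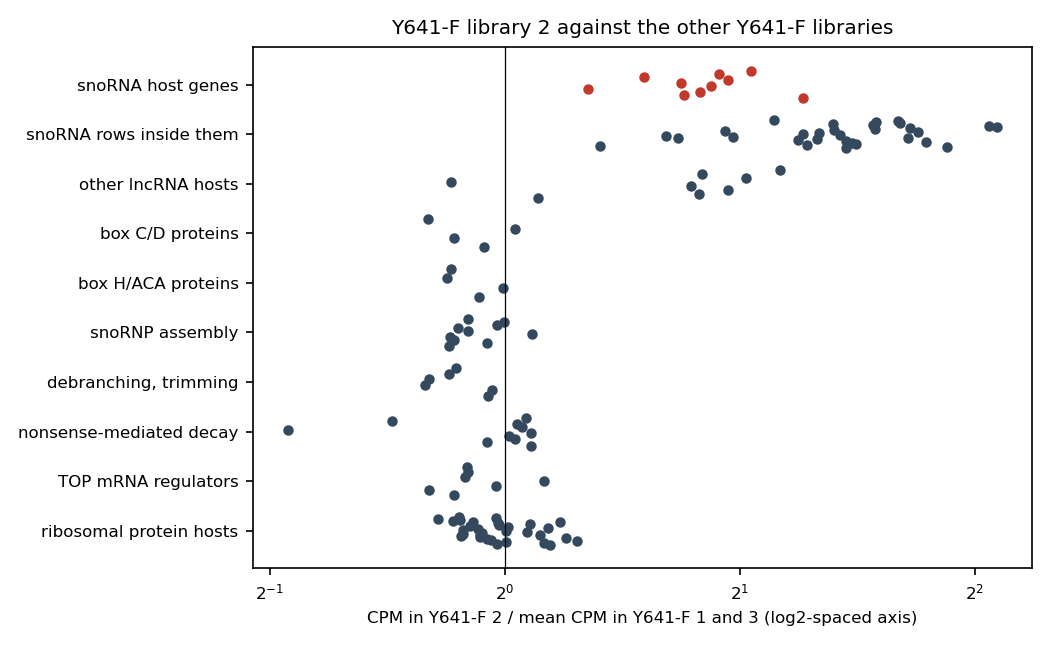
CPM in Y641-F replicate 2 over the mean CPM of Y641-F replicates 1 and 3 (horizontal axis, log2-spaced) for the genes of each list (rows). Host genes lie between 1.28 and 2.41 and the snoRNA rows inside them between 1.33 and 4.27, while the snoRNA-binding proteins lie around 0.9, and *Smg1* is the lowest point of the nonsense-mediated decay list, at 0.529.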

How the data were processed

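Total RNA was extracted from 6 samples of 4T-1 cells, and libraries were made from it with an Illumina-compatible kit and sequenced on a NovaSeq. The authors trimmed reads with fastp 0.20.1, mapped them to GRCm39 with STAR 2 and counted them per gene with featureCounts 2.0.1, per the submitters' processing notes. The annotation is not given in the sources used here, nor is the strand setting. The deposited values are raw counts of reads per gene, and no per-sample column was left out (0).

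Genes reaching 0.1 CPM in 3 or more libraries (21043 of 40205) were scaled by TMM and tested over all genes, two-sided, with edgeR 4.0.16 (quasi-likelihood, Benjamini-Hochberg) in R 4.3.3, without covariates. DESeq2 1.42.0 and limma 3.58.1 served as alternatives. Only the edgeR quasi-likelihood fit was tested on simulated data, where 18 of 176 calls were false, a larger share than the threshold of 0.05 aims at. It recovered 51 of 81 genes changed 1.5-fold and 52 of 63 changed 2-fold. Far fewer genes were changed in the simulation than were called in the data, so it does not give the error rate of the calls reported here. The depth was 32509268 to 36429035 counts. Positions and snoRNA sequences came from GENCODE vM39 (GRCm39), and start regions and the placement of snoRNA rows from RefSeq (GRCm38.p6), matched by symbol. The members and gene lists were chosen with earlier results of these data known. Each member was described in every library, with up to 3 called genes of each list with the largest change, all core snoRNA-binding proteins, all protein-coding genes starting within 1000 bases, the 5 largest changes each way of other protein-coding hosts averaging 100 counts or more, and the snoRNA rows inside members. Alternatives changed the scaling, the filter, the test, the replicate block, the fold threshold, the gene length and each library in turn.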

Additional observations from a re-analysis of the deposited data

How the results depend on the processing

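All 10 host genes kept a positive direction in each of the alternatives run. Between 8 and 9 were called higher and none lower under the other scalings, filters and tests, and between 7 and 9 higher and none lower when each library was left out in turn. *Snhg17* accounted for the added calls without a filter on low counts and by the edgeR likelihood ratio test, and 4 of the 10 passed when a log2 fold change of at least 1 was also required. The snoRNA rows inside the host genes, whose alternatives were chosen after seeing the data, numbered 15 to 25 higher when each library was left out. The genes called lower in the context lists were 2, 5 with library totals alone and 1 to 4 with each library left out, and the annotated protein-coding hosts called lower were 28, 46 with library totals alone and 18 to 31. With library totals alone the median log2 fold change of all genes moved from -0.01 to -0.11, and 2408 genes were higher and 4346 lower against 3277 and 3374. Leaving out each library gave 2273 to 3686 genes higher and 2458 to 3642 lower. Only 3 of the 10 kept their rank of level with the longest transcript as the length, by the construction of that measure. The replicate numbers did not pair the samples: deviations of same-numbered libraries correlated at -0.12, -0.22 and 0.36, and not every library correlated best with its own number. With the replicate block 8 host genes were higher and none lower by edgeR, as without it, and 21 of the snoRNA rows inside them were higher in place of 25. Apart from the lengths, the cause of these shifts was not tested. Low counts, as for *Snora74a*, limit what several snoRNA rows can show, and 3 libraries a group limit the precision of each change.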
